A study of Mus musculus with 34 samples.

Results

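Peretinoin, a synthetic acyclic retinoid given by mouth, was compared with the basal diet in the liver of 48-week-old mice that carry a Pdgf-c transgene. The comparison takes 5 arrays from mice on the peretinoin diet and 5 from mice on the basal diet, chosen by their titles. These are 10 of the 34 arrays of the study. The week 48 tumour arrays are in neither group. They entered the estimate of spread that the model shares across all 7 groups. Their means of the cell cycle and tumour lists are also given below. All 10 livers came from the strain labelled Pdgf-c Tg. Mice went onto their diets at week 4, after weaning, and the drug diet held 0.06% peretinoin. Beside them stand 4 wild-type livers (C57/B6) of week 48, 5 transgenic livers on each diet and 5 wild-type livers of week 20. The labels used here do not give the promoter behind the transgene, and name neither tumour nor its absence for the 10 livers, which they call liver. They give 1 array per sample and do not state that each came from a separate mouse, so p-values measure the spread between these samples, which may in part be technical.

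Platelet-derived growth factors are secreted dimers that bind the receptor tyrosine kinases PDGFRA and PDGFRB on mesenchymal cells. In liver the main responding cells are hepatic stellate cells, which store vitamin A at rest and, once activated, divide and secrete collagens and other matrix proteins; mice that overproduce PDGF-C develop fibrosis and later liver tumours. Retinoids act through nuclear receptors of the RAR and RXR families, which bind paired copies of a short DNA half-site in the promoters of their target genes. Peretinoin has been studied against the recurrence of liver cancer.

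Promoters of 4 genes described below are printed, 250 bases upstream of the gene start, from the RefSeq table of GRCm38.p6, each 5′ to 3′ on the gene's own strand. Cyp26a1, which encodes a retinoic acid hydroxylase, and Rarb, which encodes the retinoic acid receptor beta, are known retinoid targets and hold the direct repeat the receptors bind. Pdgfd, a PDGF receptor ligand, and Capn6, a calpain family member, stand for the genes that fell on the drug diet. The Cyp26a1 window is chr19:37697558-37697807 (plus strand), that of Rarb chr14:16575477-16575726 (minus strand), that of Pdgfd chr9:6168236-6168485 (plus strand) and that of Capn6 chrX:143827413-143827662 (minus strand). Capitals mark the direct repeat in Cyp26a1 and Rarb, TATAAA in Pdgfd and TGACTCA, an AP-1 site, in Capn6.
Cyp26a1: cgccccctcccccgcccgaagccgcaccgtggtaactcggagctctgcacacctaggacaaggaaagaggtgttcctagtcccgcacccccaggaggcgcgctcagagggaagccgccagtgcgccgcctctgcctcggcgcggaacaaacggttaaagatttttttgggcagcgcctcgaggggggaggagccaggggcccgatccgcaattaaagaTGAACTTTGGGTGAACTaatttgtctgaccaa
Rarb: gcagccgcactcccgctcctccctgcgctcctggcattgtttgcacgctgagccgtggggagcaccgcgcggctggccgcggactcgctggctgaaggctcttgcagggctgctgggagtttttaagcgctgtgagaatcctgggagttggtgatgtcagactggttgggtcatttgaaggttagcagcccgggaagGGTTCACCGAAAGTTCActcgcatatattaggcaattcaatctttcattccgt
Pdgfd: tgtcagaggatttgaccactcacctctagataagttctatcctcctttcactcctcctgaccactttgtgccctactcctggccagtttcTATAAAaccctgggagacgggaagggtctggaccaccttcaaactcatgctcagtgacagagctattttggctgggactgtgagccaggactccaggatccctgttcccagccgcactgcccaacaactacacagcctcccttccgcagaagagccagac
Capn6: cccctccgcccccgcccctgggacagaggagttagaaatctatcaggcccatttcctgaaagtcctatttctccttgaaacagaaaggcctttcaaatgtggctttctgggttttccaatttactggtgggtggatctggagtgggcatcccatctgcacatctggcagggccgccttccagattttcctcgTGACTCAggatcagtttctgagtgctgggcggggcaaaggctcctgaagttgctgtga
The repeat was searched on both strands as 2 half-sites in the same orientation, each being AGGTCA, its variant with T in the middle, AGTTCA, or the same pair with G in front, which read GGGTCA and, again with T, GGTTCA, with 1, 2 or 5 bases between them, and overlapping matches were allowed. The 5-base form begins 32 bases before the start of Cyp26a1 and 53 before that of Rarb; it was in 0.0888% of all 27025 promoters of the table, the 1-base form in 0.159% and the 2-base form in 0.178%. Of the 13099 genes tested, 10565 had a promoter in the table and 5 of those held the 5-base form: Cyp26a1, Ppbp, Prss27, Rarb and Tnfsf13b. Their log2 changes were -0.66, -0.41, 0.16, -0.69 and -0.54. Across all 3 spacings 27 tested genes held a repeat, and 0 of them were called, where 0.725% of all genes tested were, so a set of this size would hold few or no calls at that share. TATAAA was in 4 of the 57 promoters found for the genes that fell (7.02%; 7.19% of the tested genes' promoters and 13% of all promoters), CAGCTG in 10 (17.5%; 11.8% and 12.8%) and TGACTCA or TGAGTCA in 2 (3.51%; 3.26% and 4.43%). These matches describe letters in the windows and say nothing of binding.

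RNA was measured on Affymetrix Mouse Genome 430 2.0 arrays, whose deposited values are MAS5 signals on a linear scale. Tests used log2(signal + 16), which understates the change of dim genes, and the number of arrays limits their precision. The albumin signal, the hepatocyte marker, was 22171 to 26794 on the basal diet, 19641 to 30462 on the drug diet and 25976 to 33495 in wild type. The median signal of an array was 77.7 to 82.4 on the basal diet and 71.3 to 77.3 on the drug diet, ranges that do not overlap, and the 3′ to 5′ ratio of Actb, a measure of RNA integrity, was 1.30 to 1.57 and 1.42 to 1.94. Skeletal muscle markers stood at a mean of 13.3 (log2) in basal replicate 4, 13.1 in peretinoin replicate 1 and 11.1 in wild-type replicate 4. Basal replicate 1 stood at 7.71 and the others at 6.14 or less. Pancreatic acinar markers stood at 11.3 in basal replicate 4. Across the study 6 arrays held such another tissue, by a cutoff of 3 (log2) above the median of all 34 arrays. Basal replicate 1, 2.19 above that median for muscle, was under the cutoff and stayed in the fit without the 6 arrays. Results are therefore also given without these 6 arrays where that ends a call. The part of the lower median signal and of the Actb ratio in the results was not tested beyond the values after median centring and quantile normalization given with them.

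**Figure D1:**
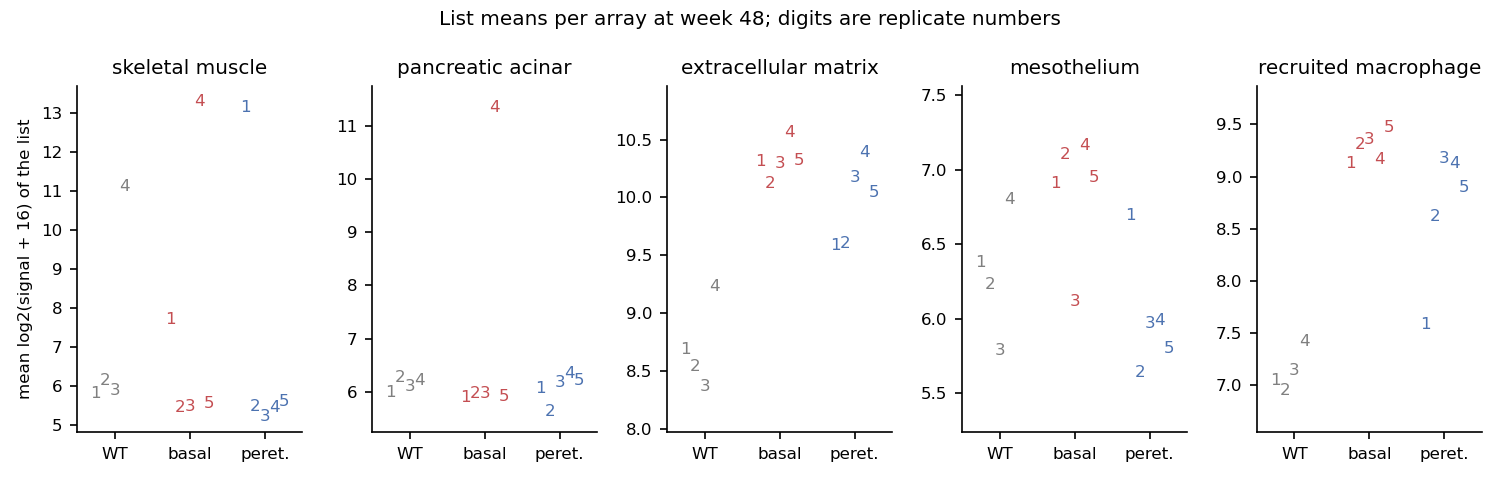
Mean log2(signal + 16) of 5 marker lists in each array of wild-type (grey), basal-diet (red) and peretinoin-diet (blue) livers at week 48; digits are replicate numbers. Basal replicate 4 and peretinoin replicate 1 stand at 13.3 and 13.1 for skeletal muscle markers. The recruited macrophage markers lie between 9.12 and 9.47 on the basal diet. On the drug diet they stand at 7.58 in replicate 1 and between 8.61 and 9.17 in the other arrays.

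Most genes that differed between the diets were lower in the peretinoin-fed livers. At an adjusted p under 0.05 in limma, 95 of 13099 genes were called (0.725%), 75 lower (0.573%) and 20 higher (0.153%). Of the 75, 44 changed at least 2-fold; of the 20, only Serinc2 did. Signals of the diets did not overlap in 76 of the 95 called genes, against 353 of all genes tested (2.69%), where 1.84% were apart with the drug diet lower. The calls came from these same arrays, so the larger share among called genes adds no support to them. The median change over all genes was -0.02, and 6989 of the 13099 were below 0. With each array centred on its median the split was 21 higher and 34 lower, a shift of the all-gene median to 0.08. The count also depends on the arrays: without peretinoin replicate 2 it was 26, without peretinoin replicate 4 180, without peretinoin replicate 3 146, without peretinoin replicate 1 57, and without basal replicates 1, 2 and 5 it was 63, 36 and 46. Without the 6 arrays of another tissue 40 genes were called, 32 of them among the 95. In a fit on the 10 arrays alone limma called 4, Bambi, Ccbe1, Gulp1 and Timp2, with 1517 genes at an unadjusted p under 0.05, and Abi3bp, Cdh11, Dpt, Epha3, Hs6st1, Itgbl1 and Pdgfd each had an adjusted p of 0.0716; 1835 (14%) reached that in the fit on all arrays. The list medians quoted below as below or above 0 kept their sign under quantile normalization and median centring unless said otherwise.

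**Figure D2:**
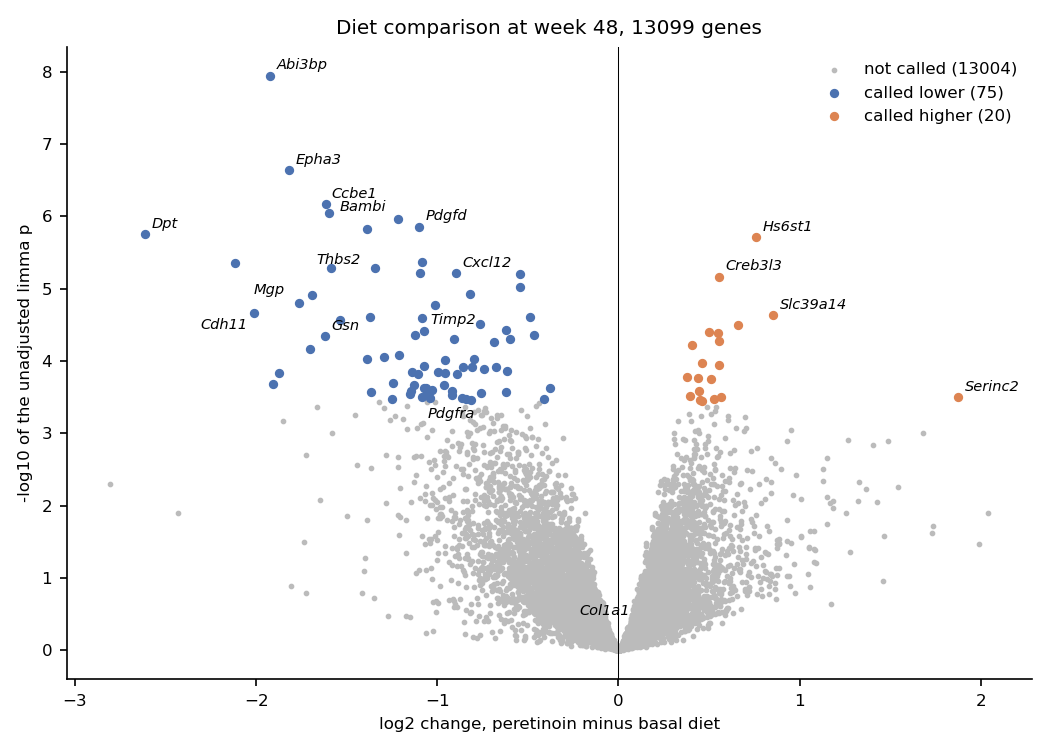
Log2 change (peretinoin minus basal diet, week 48) against -log10 of the unadjusted limma p for 13099 genes; blue points are the 75 genes called lower, orange the 20 called higher, grey the 13004 that did not pass. Blue points reach -2.61 (Dpt), while orange points, Serinc2 apart, lie below 1.

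Among the genes called lower, 9 encode secreted matrix proteins, a group put together after their values were seen, and all 9 had signals on the drug diet below every basal array. Their changes ran from -2.61 to -1.06, beside a median of -1.07 over the 75. Dpt encodes dermatopontin, a small matrix protein that binds decorin and collagen. Its signals were 1720.2, 2589, 954, 1472 and 1773 on the basal diet and 548, 92.4, 240.4, 481 and 159.6 on peretinoin. The highest drug-diet array, replicate 1, lay below the lowest basal array. The fall was 6.11-fold (log2 change -2.61 ± 0.45 (SE), adjusted p = 0.0028), and -2.92 without the 6 arrays of another tissue. Abi3bp, an extracellular protein that binds ABI3, stood at 396, 377, 254, 287 and 172 on the basal diet and 114, 38.6, 46.0, 123 and 36.1 on peretinoin, again apart. It had the smallest p of all genes in the comparison (log2 change -1.92 ± 0.25 (SE), adjusted p = 0.000149; 3.79-fold lower). Wild-type livers had 206, 245, 201 and 279, so the drug-diet arrays were also below wild type (-1.63, adjusted p = 8.13e-05), a contrast that shares its arrays with the one between diets.

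Mgp encodes matrix Gla protein, an inhibitor of calcification. Basal signals were 907, 1203, 1403, 1455 and 1232, and peretinoin signals 732, 167, 494, 350.0 and 239. All drug-diet arrays lay below all basal arrays and, except for replicates 2 and 5, above the 4 wild-type values of 134, 59.2, 113 and 302. The change was -1.76 ± 0.35 (adjusted p = 0.0098), 3.39-fold lower. Thbs2, thrombospondin 2, a matricellular protein that binds growth factors and proteases, had 436, 397, 306, 414 and 299 against 295, 79.6, 123, 198 and 70.7. Peretinoin replicate 1 came within reach of the lowest basal arrays, at 295 against 299, and the other drug-diet arrays were well below. Its fall was 2.54-fold (log2 change -1.34 ± 0.25 (SE), adjusted p = 0.0051). Ogn, osteoglycin, a small leucine-rich proteoglycan, fell 3.01-fold (log2 change -1.59 ± 0.29 (SE), adjusted p = 0.0051), from 638 ± 184 to 216 ± 122 (SD, n = 5 each). Ccbe1, a secreted protein needed for lymphatic vessel growth, fell 3.07-fold (log2 change -1.62 ± 0.26 (SE), adjusted p = 0.0028), and its call held in all 23 alternative analyses. Fmod, fibromodulin, a collagen-binding proteoglycan, had 149, 93.5, 89.8, 379 and 85.9 against 33.1, 2.8, 25.6, 81.1 and 15.4. Basal replicate 4, one of the arrays with muscle signal, was the highest by far. Fmod fell (log2 change -1.87 ± 0.43 (SE), adjusted p = 0.0316), and the call was lost without the 6 arrays of another tissue (-1.59, adjusted p = 0.0981). Olfml3 and Mamdc2, both extracellular, fell by 2.11-fold and 2.08-fold (adjusted p = 0.0433 and 0.0445; 0.205 and 0.105 without those arrays).

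**Figure D3:**
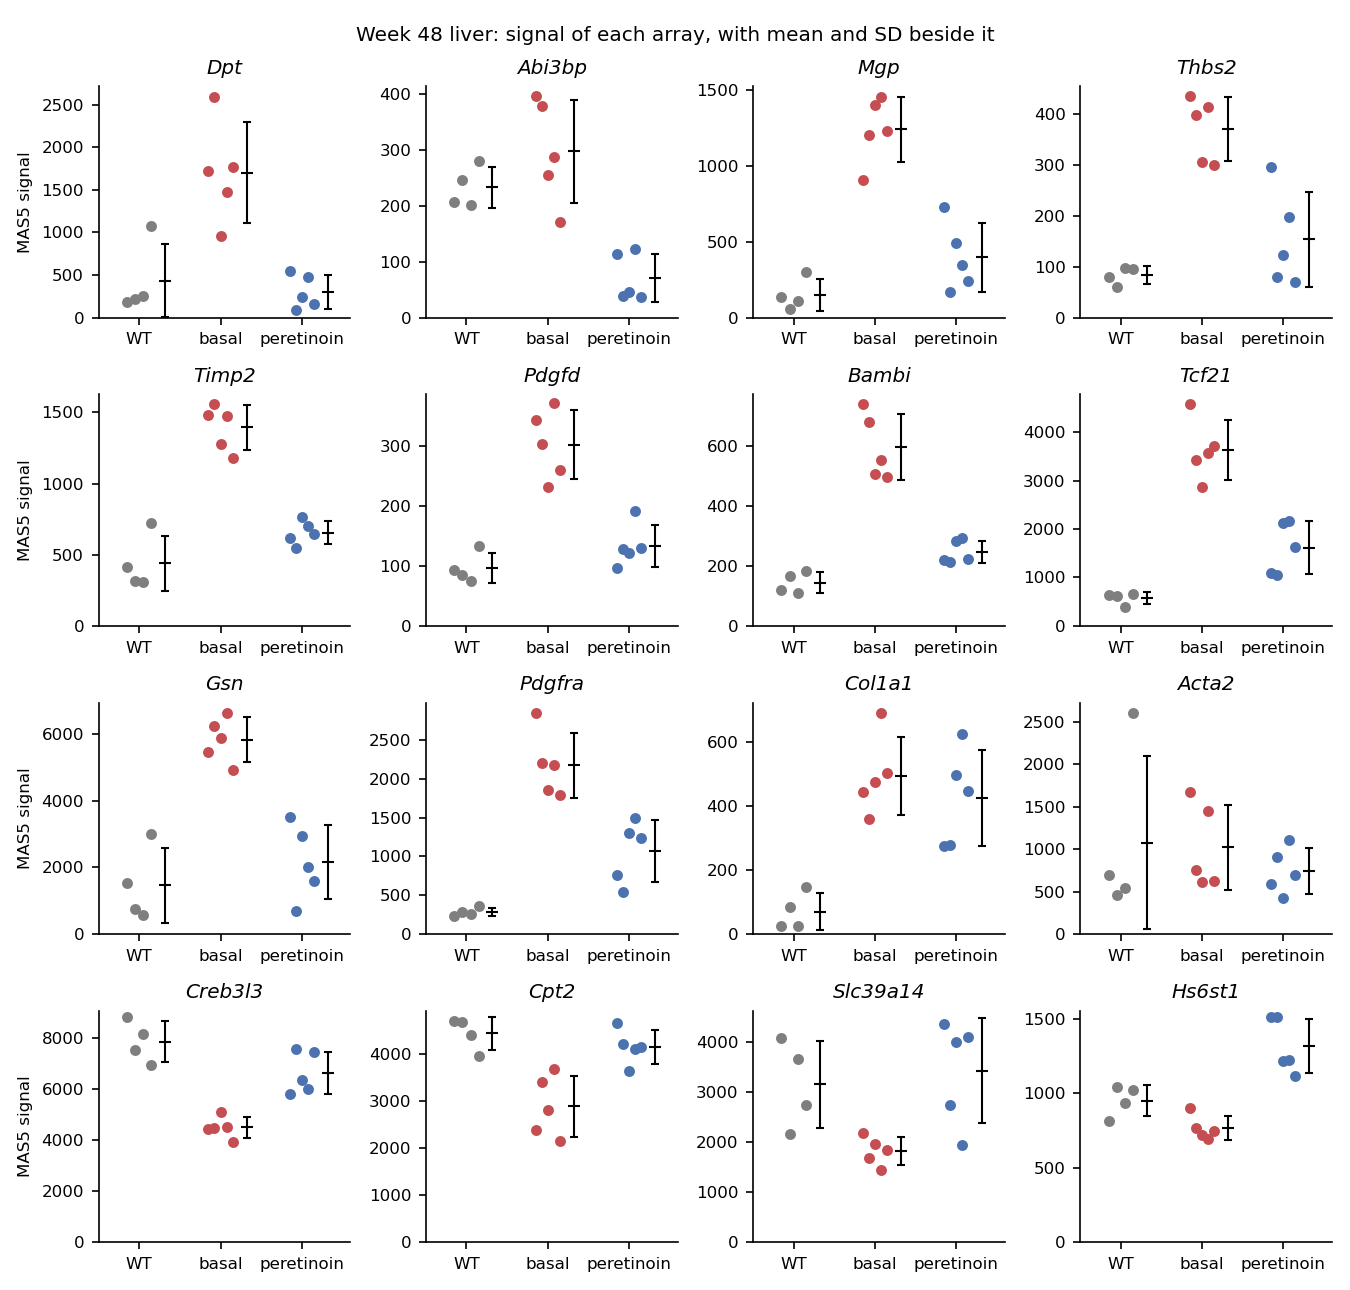
MAS5 signal (linear axis from 0) of 16 genes in each wild-type (grey), basal-diet (red) and peretinoin-diet (blue) array at week 48, with the mean and SD of each group beside the points. For Dpt, Mgp, Bambi, Timp2 and Tcf21 the blue points lie below all red ones, for Col1a1 and Acta2 the groups overlap, and for Creb3l3 and Hs6st1 the blue points lie above.

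No collagen chain described here passed the test. Col1a1, the chain of type I collagen most used as a measure of fibrosis, had signals of 445, 359.5, 476, 691 and 505 on the basal diet and 276, 279.9, 499, 625 and 448 on peretinoin. The diets overlapped over most of their range, and both lay above the wild-type values of 26.5, 83.7, 26.5 and 146. Its change was -0.25 ± 0.29 (adjusted p = 0.754), and 0.01 without the 6 arrays of another tissue. Col1a2 stood at -0.12 ± 0.27 (0.17 without those arrays) and Col4a2, a chain of basement membrane collagen, at 0.33 ± 0.21; neither passed (adjusted p = 0.891 and 0.491). Of the 28 members of the extracellular matrix list that were tested, 2 fell and 26 did not pass. At an unadjusted p under 0.05 there were 11, of which 9 were below 0. In all, 19 were below 0, and the list's median was -0.36 against -0.02 over all genes. Its mean level was 10.1 to 10.6 in basal arrays, 9.59 to 10.4 in drug-diet arrays and 8.37 to 9.23 in wild type. Fn1, fibronectin, came closest to passing after Dpt and Mgp, the 2 that fell, and lay on the other side of 0 (0.44 ± 0.12, adjusted p = 0.0765). It had 15180.3, 11162, 12834, 9701 and 13227 on the basal diet and 19952, 16709, 17940.3, 13104 and 16582 on peretinoin, with peretinoin replicate 4 alone within the basal range. Eln, elastin, stood at -0.57 ± 0.21 (adjusted p = 0.184).

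Among PDGF ligands and receptors, 1 of 7 tested genes fell, 4 had an unadjusted p under 0.05, and all 7 were below 0 with a median of -0.54. The gene that fell was Pdgfd, whose ligand, PDGF-D, binds PDGFRB. Basal arrays had 344, 304, 231, 372 and 259.9 and drug-diet arrays 96.0, 129, 122, 192 and 129.7. Each drug-diet array was below each basal one, and 4 of the 5 were no higher than the highest wild-type array (wild type: 93.1, 85.1, 74.8 and 133). Pdgfd fell 2.14-fold (log2 change -1.10 ± 0.19 (SE), adjusted p = 0.0028), a call that held in 22 of 23 alternatives. Pdgfra, the receptor for PDGF-C homodimers, had 2849.8, 2196, 1860.0, 2170.1 and 1788 against 758, 542, 1301, 1499.8 and 1236, without overlap, and 236, 289, 263 and 358 in wild type. The change of -1.09 ± 0.29 did not pass (adjusted p = 0.0678). Pdgfrb overlapped between diets, at 1932 ± 286 and 1349 ± 368 (SD, n = 5 each; -0.54 ± 0.23, adjusted p = 0.275). Pdgfc itself had 1219, 828, 517, 578 and 846 on the basal diet and 632, 603, 506, 625 and 646 on peretinoin (adjusted p = 0.469). Which part of the transgene its probe set reads is not given in the labels, so its level does not check the genotype.

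In TGF-beta signalling, the main driver of matrix synthesis by stellate cells, 0 of 17 listed genes passed, 6 had an unadjusted p under 0.05, 16 were below 0 and the median was -0.41 (-0.25 without peretinoin replicate 1). The closest were Tgfbi, a matrix protein induced by TGF-beta (-0.63 ± 0.18, adjusted p = 0.0848), and Ltbp3, which tethers latent TGF-beta to the matrix (-0.56 ± 0.16, adjusted p = 0.102). Tgfb1, the ligand, stood at -0.07 ± 0.24 (adjusted p = 0.925), a value whose sign turned without the 6 arrays (0.24). Outside that list, Bambi, a decoy receptor that dampens TGF-beta and BMP signals, fell in all analyses tried. Its signals were 741, 681, 508, 555 and 498 on the basal diet and 218, 215, 282, 292 and 224 on peretinoin. The gap between the groups was wide beside their spread, and wild-type arrays were lower still at 120.3, 165, 109 and 185. The fall was 2.33-fold (log2 change -1.22 ± 0.20 (SE), adjusted p = 0.0028), and the call held in 23 of 23 alternatives.

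Of 16 tested matrix proteases and their inhibitors, 2 fell, 14 did not pass, 4 had an unadjusted p under 0.05 and 13 were below 0. The median was -0.41, and -0.16 without the 6 arrays of another tissue. Timp2 encodes a tissue inhibitor of metalloproteinases. It had 1483, 1562, 1278, 1474 and 1183 on the basal diet against 616, 549, 763, 704 and 646. Every drug-diet array was below every basal one, around the level of wild-type replicate 4 and above the other 3 wild-type arrays (wild type: 414, 314, 306 and 721). It fell 2.1-fold (log2 change -1.07 ± 0.22 (SE), adjusted p = 0.0156), and also fell at week 20 (-0.79, adjusted p = 0.0476). Adamts5, an aggrecan-cleaving protease, fell 2.19-fold (log2 change -1.13 ± 0.27 (SE), adjusted p = 0.0409), from 1005 ± 196 to 464 ± 148 (SD, n = 5 each); without the 6 arrays of another tissue its adjusted p was 0.062.

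A group of 5 transcription factors and cofactors, put together from the genes called lower after the values were seen, had no overlap between the diets; Creb3l3, a transcription factor called higher, is described with the rises. Tcf21, a basic helix-loop-helix factor of fibroblast and stellate lineages, had 4572, 3424, 2865, 3570.5 and 3708 on the basal diet and 1086, 1048, 2133, 2167 and 1637 on peretinoin. Replicates 1 and 2 of the drug diet were the lowest, at under 1100, yet above the wild-type arrays (646, 611, 382 and 652). Tcf21 fell 2.32-fold (log2 change -1.21 ± 0.27 (SE), adjusted p = 0.0244; adjusted p = 0.141 without the 6 arrays of another tissue). Meox1, a homeobox factor, fell 3.23-fold, from 156 ± 56.3 to 39.2 ± 23.9 (log2 change -1.69 ± 0.33 (SE), adjusted p = 0.00803; adjusted p = 0.109 without those arrays). Vgll3, a cofactor of TEAD factors, fell 2.46-fold (adjusted p = 0.026; 0.134 without them) and Tbx20, a T-box factor, 1.82-fold (adjusted p = 0.048; 0.103). Gli3, a transcription factor of the Hedgehog pathway, differed in that its basal level was close to wild type: 74.8, 145, 81.1, 98.2 and 108 on the basal diet, 60.6, 34.2, 64.3, 41.8 and 49.6 on peretinoin and 93.8, 83.6, 85.2 and 96.0 in wild type. The drug-diet arrays were below both other groups. Gli3 is dim there, with every drug-diet signal below the lowest median signal of those arrays, 71.3. Its change was -0.82 ± 0.16 (adjusted p = 0.00803), and the call held in 21 of 22 alternatives.

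A group of 4 adhesion and guidance genes was put together from the genes called lower in the same way, 3 of them without overlap. Cdh11, cadherin 11, a cadherin of mesenchymal cells, had 169.6, 205, 132, 229 and 185 against 67.3, 3.5, 38.6, 49.0 and 32.7, and 4 of the 5 drug-diet arrays lay within the wild-type range (49.7, 2.3, 11.9 and 62.0). It fell 4.03-fold (log2 change -2.01 ± 0.40 (SE), adjusted p = 0.0122). Epha3, an ephrin receptor kinase, had 87.0, 115, 145, 97.5 and 117 against 37.2, 5.4, 15.5, 28.1 and 21.8. All 5 drug-diet arrays lay below all basal and all wild-type arrays (57.7, 48.2, 51.2 and 108 in wild type). Its fall was 3.53-fold (log2 change -1.82 ± 0.28 (SE), adjusted p = 0.00151). Itgbl1, an integrin beta-like secreted protein, fell 2.62-fold (log2 change -1.39 ± 0.24 (SE), adjusted p = 0.0028) and also fell at week 20 (-1.31, adjusted p = 0.00564). Itgb8, an integrin chain that helps activate latent TGF-beta, fell 2.9-fold (log2 change -1.53 ± 0.31 (SE), adjusted p = 0.0127), although peretinoin replicate 1 at 244 overlapped the basal arrays, the lowest of which was at 203.

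Other called genes of varied roles had large falls too. Gsn, gelsolin, an actin-severing protein, had 5472, 6255, 5885, 6632 and 4929 on the basal diet and 3528, 692, 2939, 2027 and 1593 on peretinoin. The drug-diet arrays were all lower, replicate 1 the least so. It fell 3.07-fold (log2 change -1.62 ± 0.34 (SE), adjusted p = 0.0159). Gulp1, an adaptor for engulfment of dying cells, had 248, 337, 188, 196 and 173 against 43.4, 42.9, 62.5, 73.7 and 68.9, the drug-diet values within the wild-type range. It fell 3.25-fold (log2 change -1.70 ± 0.37 (SE), adjusted p = 0.0205), but with only basal replicate 4 and peretinoin replicate 1 left out its adjusted p was 0.0804, and that of Timp2 0.0747. Capn6, whose promoter is shown above, had 852, 1058, 885, 785 and 1093 against 184, 120.3, 414, 537 and 432. No array of one diet reached the other, and wild-type arrays had 133, 81.3, 109 and 93.2. Capn6 fell 3.03-fold (log2 change -1.60 ± 0.26 (SE), adjusted p = 0.0028). Mdk, midkine, a heparin-binding growth factor, fell at both ages, by 1.74-fold here (adjusted p = 0.0262; 0.11 without the 6 arrays of another tissue) and with a change of -0.73 at week 20 (adjusted p = 0.0256). Sema3d, a secreted semaphorin, fell 2.18-fold (adjusted p = 0.0159), from 185 ± 20.2 to 79.2 ± 26.5, and its drug-diet arrays were at most 116 against 113 to 179 in wild type. C1qtnf7, a secreted C1q-like protein, fell 2.58-fold (adjusted p = 0.0445; 0.0524 without those arrays).

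Defining markers of stellate cells were present in all 10 livers. Of 16 tested stellate and myofibroblast markers 1 fell, 15 did not pass and 13 were below 0, with a median of -0.42. At an unadjusted p under 0.05 there were 6, of which 5 were below 0. The mean level of these markers was 9.61 to 10.2 on the basal diet, 9.23 to 9.74 on peretinoin and 8.97 to 9.59 in wild type. In bulk liver, fewer cells of a type and less RNA per cell cannot be told apart. The gene that fell was Cygb, cytoglobin, a globin of stellate cells, with 2264, 1739, 1027, 1452 and 1472 against 707, 812, 1278, 765 and 801. Peretinoin replicate 3 stood apart, within the basal range. The change was -0.84 ± 0.21 (adjusted p = 0.048; 0.172 without the 6 arrays of another tissue), and the call held in 5 of 23 alternatives. Hand2, a transcription factor of stellate cells, had groups apart but did not pass (-1.09 ± 0.33, adjusted p = 0.106). Acta2, smooth muscle actin and the usual marker of activated cells, had 1670.5, 753, 613, 1454 and 626 and 590.3, 904, 426, 1109 and 690.0, with full overlap (-0.40 ± 0.32, adjusted p = 0.622). Mesothelial markers had the lowest median of the 47 lists, -0.95 over 6 tested genes, all below 0, 3 at an unadjusted p under 0.05 and 0 called; Wt1, their transcription factor, did not overlap between diets (-0.98 ± 0.37, adjusted p = 0.216).

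Immune genes mostly had values below 0, and few passed. Neutrophil markers were divided, with 6 of 10 below 0, 4 above, 0 called and 0 at an unadjusted p under 0.05. Their median of -0.06 was 0.04 after quantile normalization and 0.03 after median centring. Cxcl12, a chemokine made by stromal cells that attracts lymphocytes, had 11683, 9879, 10546, 9301 and 11068 on the basal diet and 6054, 3979, 8489, 5174 and 5242 on peretinoin. All drug-diet arrays were below the basal ones, and 3 of the 5 were no higher than the highest wild-type array (4844, 5599, 3988 and 4916). It fell 1.86-fold (log2 change -0.90 ± 0.17 (SE), adjusted p = 0.0051), the 1 call among 16 tested inflammation genes, whose median was -0.23. At an unadjusted p under 0.05 there were 4 of those 16. Cd3g, a chain of the T cell receptor complex, fell 1.95-fold (adjusted p = 0.0409, and 0.0623 without the 6 arrays of another tissue). It was the 1 call among 11 T and NK cell genes, 10 of which were below 0 (median -0.57) and 4 at an unadjusted p under 0.05. Igkv9-120, an immunoglobulin light chain variable segment, had 1252, 635, 180.3, 651 and 444 against 102, 91.0, 171, 115 and 90.2. The basal arrays spread widely, with replicate 1 the highest, and the drug-diet arrays were all below them. It fell 4.33-fold (log2 change -2.11 ± 0.38 (SE), adjusted p = 0.0051; 0.0526 without those 6 arrays); variable segments are near copies of each other, so its probe set may read others. Of 11 B and plasma cell genes 0 passed and 3 had an unadjusted p under 0.05 (median -0.44), Jchain, the joining chain of secreted antibodies, standing at -1.44 ± 0.44 (adjusted p = 0.121).

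Recruited macrophage markers had 11 of 12 tested genes below 0 and a median of -0.61, with 0 called and 5 at an unadjusted p under 0.05. Cx3cr1, a chemokine receptor of monocyte-derived cells, had 1026, 1028, 1098, 796 and 1129 on the basal diet against 84.0, 263, 722, 376 and 884. The drug-diet arrays ranged from near the wild-type values (41.9, 40.5, 61.3 and 78.9) to within the basal range. The difference missed the threshold (-1.46 ± 0.38, adjusted p = 0.0602), as did that of Gpnmb, a glycoprotein of lipid-laden macrophages (-1.08 ± 0.47, adjusted p = 0.283). All 11 MHC class II and dendritic cell genes were below 0 (median -0.45; 0 called, 5 at an unadjusted p under 0.05), with H2-Eb1 at -0.59 ± 0.21 (adjusted p = 0.174). Of 18 interferon-response genes 17 were below 0 (median -0.42; 0 called, 7 at an unadjusted p under 0.05); Oasl2 came closest (-0.76 ± 0.21, adjusted p = 0.0734). Kupffer cell markers had 0 of 15 called (2 at an unadjusted p under 0.05) and a median of -0.18, which turned to 0.21 without peretinoin replicate 1. Cd163, a scavenger receptor of resident macrophages, had 57.1, 5.4, 21.4, 60.3 and 53.5 and 56.1, 146, 45.9, 14.4 and 75.0 on the diets and 366, 1011, 1273 and 821 in wild type, so it was low in the transgenic livers on either diet (adjusted p between diets 0.618).

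Among endothelial and bile duct markers 0 of 18 and 0 of 10 were called, with 2 and 1 at an unadjusted p under 0.05. The endothelial median of -0.21 turned to 0.12 without peretinoin replicate 1, the array with muscle signal, and the bile duct median of -0.22 to 0.10 in the brighter 40% of probe sets. Of the endothelial list Rspo3, a secreted Wnt amplifier, came closest to passing (-0.82 ± 0.22, adjusted p = 0.0647). Flt1, a VEGF receptor, Tie1, an endothelial receptor kinase, and Vegfa, the growth factor, stood at -0.38 ± 0.28, -0.0035 ± 0.23 and 0.02 ± 0.15 (adjusted p = 0.583, 0.996 and 0.97). The last 2 changed sign in several alternatives. Krt19, a keratin of bile ducts, stood at -1.28 ± 0.46 (adjusted p = 0.185). Muscle and acinar markers had medians of -0.52 and -0.94, which follow single arrays: without basal replicate 4 they were 0.89 and 0.10.

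The genes that rose on peretinoin changed less, and several act in hepatocyte metabolism. A group of 6 with roles in hepatocyte metabolism, put together after the values were seen, rose by 0.44 to 0.66 on the log2 scale, 5 of them without overlap. Creb3l3 encodes CREBH, a membrane-bound transcription factor of lipid and fasting metabolism. It had 4439, 4476, 5116, 4526 and 3923 on the basal diet and 5783, 7571, 6352, 6012 and 7435 on peretinoin. Every drug-diet array was above every basal one, and wild-type arrays were at 8810.1, 7519, 8140.5 and 6931. The rise was 1.47-fold (log2 change 0.56 ± 0.10 (SE), adjusted p = 0.00528), and the call held in 22 of 23 alternatives. Cpt2, the inner-membrane carnitine palmitoyltransferase that re-forms acyl-CoA inside the mitochondrion for oxidation, had 2384, 3405, 2819, 3698 and 2163 against 4671, 4216, 3656, 4121 and 4167. Basal replicate 4 alone reached into the drug-diet range. It rose 1.46-fold (log2 change 0.55 ± 0.12 (SE), adjusted p = 0.0156), on the probe set of highest signal; another of its probe sets had the opposite sign. Mttp, which loads lipid onto nascent lipoproteins, rose 1.38-fold (adjusted p = 0.0485), with peretinoin replicate 5 at 11828 and the other 4 at 7696 to 8369. Uroc1, an enzyme of histidine breakdown, rose 1.58-fold (log2 change 0.66 ± 0.14 (SE), adjusted p = 0.0138), from 1838 ± 239.6 to 2922 ± 424 (SD, n = 5 each). Gss, glutathione synthetase, rose 1.37-fold and Lrpprc, a stabiliser of mitochondrial mRNA, 1.36-fold (adjusted p = 0.048 and 0.0445). Without the 6 arrays of another tissue the calls of Mttp, Uroc1, Gss and Lrpprc were lost (adjusted p = 0.145, 0.0905, 0.0945 and 0.129).

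Hs6st1, a sulfotransferase that modifies heparan sulfate, had 903, 767, 723, 694 and 747 on the basal diet and 1508, 1511, 1219, 1219 and 1117 on peretinoin. The drug-diet arrays also exceeded all wild-type arrays (812, 1038, 931 and 1019). It rose 1.69-fold (log2 change 0.76 ± 0.13 (SE), adjusted p = 0.0028), a call kept in 22 of 23 alternatives. Serinc2, a membrane protein of the serine incorporator family, had 124, 27.6, 29.8, 135 and 17.8 against 226, 244, 210.3, 194 and 304. Basal arrays split between about 124 to 135 and under 30, and all drug-diet arrays were higher. The rise was the largest of the 20, 3.67-fold (log2 change 1.88 ± 0.46 (SE), adjusted p = 0.048), and held in 9 of 22 alternatives. Slc39a14, a zinc and iron importer, rose 1.81-fold (log2 change 0.86 ± 0.17 (SE), adjusted p = 0.0122); peretinoin replicate 4, at 1932, was within the basal range (basal: 2174, 1686, 1968, 1437 and 1846). Tcn2, a vitamin B12 transporter in blood, rose 1.47-fold (log2 change 0.56 ± 0.13 (SE), adjusted p = 0.0295), above basal and wild type alike. Without the 6 arrays of another tissue the adjusted p was 0.0676 for Serinc2, 0.144 for Slc39a14 and 0.0557 for Tcn2. Cp, ceruloplasmin, the copper-carrying ferroxidase of plasma, rose 1.38-fold (log2 change 0.46 ± 0.10 (SE), adjusted p = 0.0281; 0.103 without those arrays), but averaged over its probe sets the change was -0.04. Sidt2, a lysosomal membrane protein, Smpd2, a sphingomyelinase, Tgfbrap1, a binding partner of the TGF-beta receptor, and Dus1l, a tRNA-modifying enzyme, rose 1.41-fold, 1.42-fold, 1.47-fold and 1.48-fold (adjusted p = 0.0156, 0.0354, 0.0174 and 0.048). All 4 calls were lost without the 6 arrays (adjusted p = 0.144, 0.113, 0.146 and 0.123).

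Lists of hepatocyte and lipid genes had few calls, and their medians lay on either side of 0. Fatty acid oxidation had 1 of 22 tested genes called higher, Cpt2, 9 at an unadjusted p under 0.05, all higher, and 20 above 0 (median 0.33). Hadha, a subunit of the mitochondrial trifunctional protein, stood at 0.32 ± 0.10 (adjusted p = 0.103). Lipid droplet genes had 0 of 21 called, 7 at an unadjusted p under 0.05 and 19 above 0 (median 0.39). Cidea, a lipid droplet protein, had 28.9, 175, 37.3, 262 and 9.3 on the basal diet and 58.8, 1791, 1309, 77.8 and 209.6 on peretinoin. Replicates 2 and 3 of the drug diet were far above the rest, and the groups overlapped (2.04 ± 0.77, adjusted p = 0.214). Of 22 mature hepatocyte genes 0 were called, 4 had an unadjusted p under 0.05 and 21 were above 0 (median 0.14). Of 25 acute-phase genes 1 rose, Cp, and 5 had an unadjusted p under 0.05 (median 0.23). The transcription factors Hnf4a and Cebpa stood at 0.36 ± 0.13 and 0.47 ± 0.18 (adjusted p = 0.211 and 0.213). Fatty acid synthesis genes had 0 of 18 called, 3 at an unadjusted p under 0.05, 12 below 0 and a median of -0.13, which was 0.01 without the 6 arrays of another tissue; Tkfc, a fructose-metabolising kinase, came closest (0.93 ± 0.26, adjusted p = 0.0859). Cholesterol synthesis genes had 0 of 19 called, 6 at an unadjusted p under 0.05, 18 below 0 and a median of -0.33; Pmvk, a kinase of the mevalonate pathway, had 2004, 1393, 1883, 2172 and 2316 against 644, 1358, 1361, 1940.0 and 948 (adjusted p = 0.187). Circadian clock genes had 0 of 16 called, 2 at an unadjusted p under 0.05, 11 above 0, 5 below 0 and a median of 0.43. Dbp, an output gene of the clock, was spread from 126 to 1715 on the basal diet and from 360.5 to 6853 on peretinoin. Among the 5 below 0, Arntl stood at -0.77 ± 0.39 and Nfil3 at -0.49 ± 0.28 (adjusted p = 0.381 and 0.458). Hsd3b5, a male-biased steroid dehydrogenase, had 16489, 9939, 14607 and 17380.0 in wild type and at most 914 on either diet (adjusted p between diets 0.508).

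**Figure D4:**
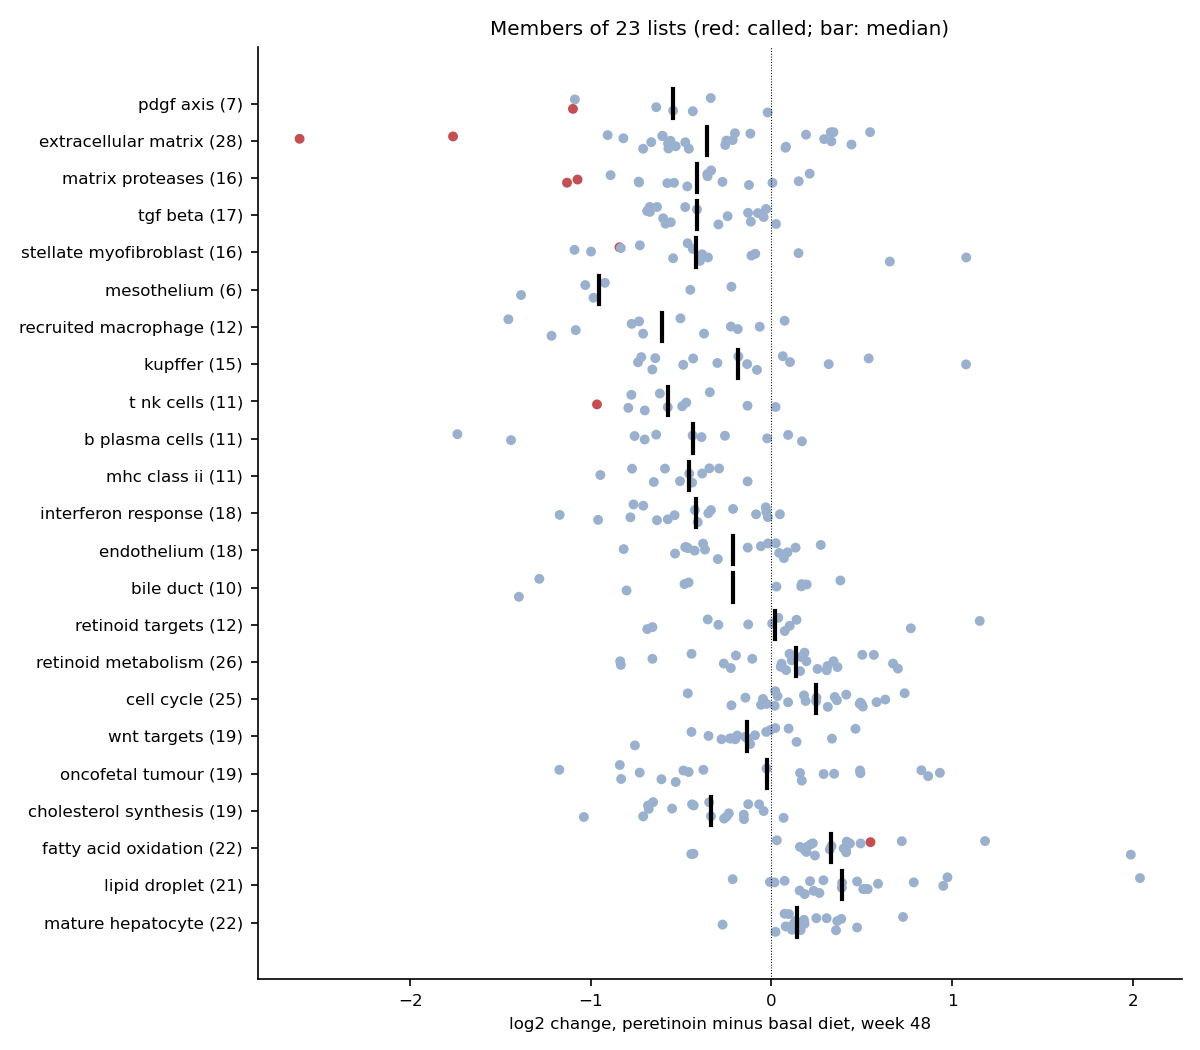
Log2 change (peretinoin minus basal diet, week 48) of the tested members of 23 gene lists, 1 point per gene; red points passed adjusted p under 0.05 and bars mark list medians. Medians of PDGF, matrix, TGF-beta, stellate, mesothelial and immune lists lie below 0, those of fatty acid oxidation (0.33) and lipid droplets (0.39) above.

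Retinoid genes showed no call. Of 12 tested retinoid target genes, 26 genes of retinoid transport and metabolism and 24 nuclear receptor genes, 0 passed in limma and 4, 9 and 6 had an unadjusted p under 0.05. The medians were 0.02, 0.14 and 0.01; the first was -0.01 after quantile normalization and the last -0.06 without the 6 arrays of another tissue. Cyp26a1, the hydroxylase whose promoter repeat is printed above, had 4752, 3849, 3909, 3208 and 2705 on the basal diet and 2898, 3728, 1431, 3066 and 1315 on peretinoin. Drug-diet replicates 3 and 5 were the lowest, and the rest overlapped with the basal arrays (-0.66 ± 0.31, adjusted p = 0.348). Rarb had 532, 441, 441, 427 and 582 against 120.2, 355, 284, 493 and 346, with only peretinoin replicate 4 within the basal range (-0.69 ± 0.23, adjusted p = 0.151). Cyp26b1, a related hydroxylase, was at 1.15 ± 0.46 (adjusted p = 0.246), the opposite sign. Lrat, which esterifies retinol for storage in stellate cells, had 1354, 1204, 1097, 924 and 1398 against 321, 712, 831, 1083 and 586 (-0.83 ± 0.27, adjusted p = 0.138). The receptor Rxra stood at 0.53 ± 0.18 and Rara at 0.08 ± 0.42 (adjusted p = 0.153 and 0.957). Rarres1 (retinoic acid receptor responder) was at 0.77 ± 0.36 (adjusted p = 0.327).

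Cell cycle and tumour genes did not pass either. Cdk1, the kinase that drives mitosis, had 159, 129.7, 184, 315 and 332 on the basal diet and 141, 204, 195, 758 and 768 on peretinoin, and Mki67, a marker of dividing cells, 161, 98.8, 139.8, 201 and 256 and 111, 136, 85.0, 627 and 806. In both genes peretinoin replicates 4 and 5 stood above all other arrays, and wild-type arrays were below (Cdk1 at most 87.3). Changes were 0.58 ± 0.45 and 0.49 ± 0.50 (adjusted p = 0.598 and 0.706). Cdk6, a kinase of early cell cycle entry, had the smallest p of its list (0.41 ± 0.12, adjusted p = 0.106). Of 25 cell cycle genes 0 passed, 3 had an unadjusted p under 0.05 and 19 were above 0. The median of 0.25 turned to -0.06 without peretinoin replicate 5. Mean levels of that list were 9.39 and 9.28 in peretinoin replicates 4 and 5, and 7.56, 8.14 and 7.89 in replicates 1 to 3. Basal arrays had 7.83 to 8.63 and tumour arrays 8.46 to 9.74. Afp, the fetal albumin-like protein of liver tumours, had 222, 278, 552, 620.1 and 701 against 224, 182, 201, 622 and 135, peretinoin replicate 4 alone being as high as the higher basal arrays (-0.84 ± 0.36, adjusted p = 0.283). The tumour list had 0 of 19 tested genes called, 2 at an unadjusted p under 0.05, 10 below 0 and 9 above. Its median of -0.03 was 0.07 after quantile normalization and after median centring. Mean levels of the tumour list were 9.29 and 9.12 in peretinoin replicates 4 and 5, above every basal array. Peretinoin replicates 1 to 3 had 7.64 to 8.07. Tumour arrays had 8.96 to 9.78, a range that held peretinoin replicates 4 and 5 and also basal replicate 4. Whether these livers held tumour was not tested. Spink1 and Lcn2, also of this list, stood at 0.93 ± 0.54 and 0.87 ± 0.65 (adjusted p = 0.461 and 0.592). Ccnd1, cyclin D1, and Ctnnb1, beta-catenin, stood at 0.02 ± 0.34 and -0.13 ± 0.07 (adjusted p = 0.986 and 0.437). Of 19 Wnt target genes 0 passed, and 0 had an unadjusted p under 0.05.

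The same diets at week 20 used other arrays, and 378 genes were called there (2.89%), 215 higher (1.64%) and 163 lower (1.24%). Of the 75 genes lower at week 48, 59 were below 0 at week 20 and 7 were called lower, 9.33% of the 75 and 4.29% of the 163. Those 7 are Art4, Cyp1b1, Gpm6b, Itgbl1, Mdk, Mgp and Timp2. Of the 20 genes higher at week 48, 10 had the same sign and Cp was called. Over all genes tested 54.4% had the same sign at both ages. The clone 1810008I18Rik was called in opposite directions. The median change of the 75 genes was -1.07 at week 48 and -0.38 at week 20. These genes were chosen by their week 48 values, which by itself can leave the week 20 median nearer 0. The 2 medians therefore do not show that the effect was larger at week 48. Of these 75, 54 had been called higher in transgenic than in wild-type livers at week 20 on the basal diet (72%; 15.8% of all genes tested) and 3 lower (7.87% of all).

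A test of the difference between the ages, in the same limma fit, called 89 genes (0.679%), of which 15 were also called at week 48. The week 48 values enter both tests, so that overlap follows in part from shared arrays. The same holds for the differences of genes named by their week 48 values. Thbs2 stood at -1.34 at week 48 and 0.08 at week 20 (difference -1.42, adjusted p = 0.0442), and Abi3bp at -1.92 and -0.27 (difference -1.65, adjusted p = 0.0286). Epha3 stood at -1.82 and -0.21 (adjusted p of the difference 0.0442). For Mgp and Timp2 the difference did not pass (-0.29 and -0.28, adjusted p = 0.848 and 0.751). Among genes that rose, Creb3l3 stood at 0.56 at week 48 and -0.20 at week 20 (adjusted p of the difference 0.0149), Cpt2 at 0.55 and -0.17 (0.0328) and Slc39a14 at 0.86 and -0.31 (0.0286). Among the differences of smallest p were genes called at week 20 alone: Serpina7, thyroxine-binding globulin, stood at 2.06 at week 20 and -0.54 at week 48 (difference -2.60, adjusted p = 0.006), and Nrg4, a growth factor of the neuregulin family, at -2.04 and 0.61 (difference 2.65, adjusted p = 0.0205). Pmvk stood at 0.99 at week 20 and -0.71 at week 48 (adjusted p of the difference 0.0286). Dcps, a scavenger decapping enzyme, fell at week 48 (log2 change -0.49 ± 0.10 (SE), adjusted p = 0.0122) and stood at 0.34 at week 20 (adjusted p of the difference 0.006). The count of differences lay between 11 (without week 20 basal replicate 3) and 215 (without week 20 basal replicate 4) as single arrays were left out, and 16 of the 20 arrays moved it by over 1.5 times; the other 4 were week 48 basal replicate 1, week 48 peretinoin replicates 1 and 3 and week 20 peretinoin replicate 4.

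**Figure D5:**
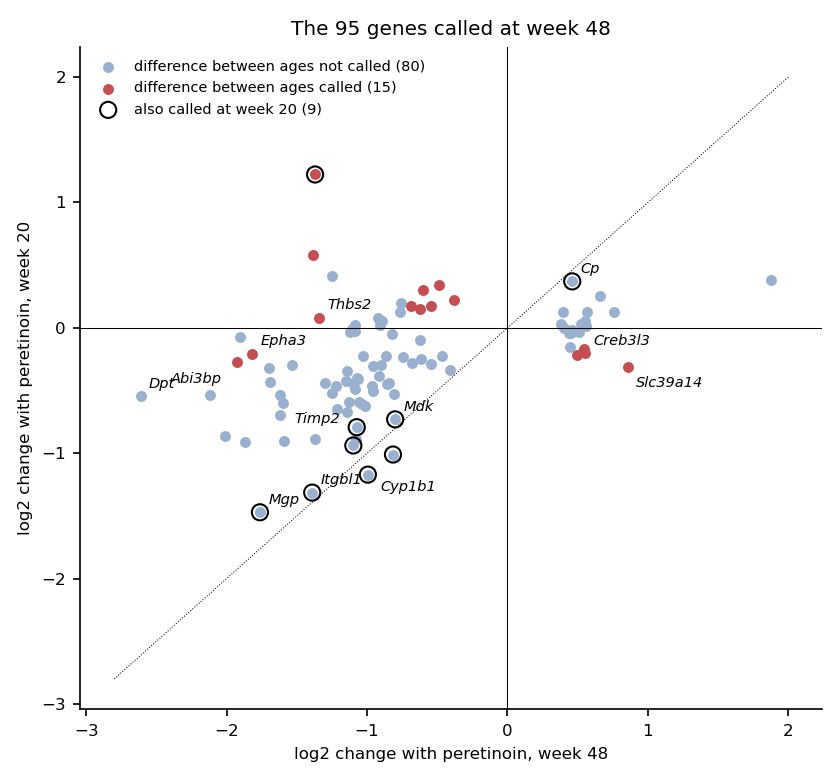
Log2 change with peretinoin at week 48 (x) against week 20 (y) for the 95 genes called at week 48; red points are the 15 whose difference between ages passed, circles mark the 9 also called at week 20 and the dotted line marks equal change. Most points of the 75 lower genes lie below 0 on both axes and nearer 0 at week 20. The genes were chosen by their week 48 values, which by itself can leave week 20 values nearer 0.

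Set beside wild-type liver of the same age, the genes that fell differ in where the drug-diet level lies. These contrasts share the basal or drug-diet arrays with the one between diets, so the values are given side by side without a test of their relation. Basal-diet livers stood above wild type by 3.08 for Mgp, 2.99 for Capn6, 3.28 for Adamts5 and 2.64 for Tcf21, and drug-diet livers by 1.32, 1.39, 2.15 and 1.43 (log2). For Dpt, Ccbe1 and Gulp1 the drug-diet livers stood at -0.36, -0.25 and -0.92 against wild type (adjusted p = 0.651, 0.589 and 0.106). For Abi3bp, Epha3, Gli3 and Sema3d the basal diet stood 0.12 to 0.68 above wild type and the drug diet at -1.63, -1.14, -0.70 and -0.79. The median signal of an array was 74.3 to 92.1 in wild type and 71.3 to 77.3 on the drug diet. Its part in these contrasts was not tested. Of the rises, Creb3l3 stood at -0.80 on the basal diet and -0.25 on peretinoin against wild type, and Cpt2 at -0.64 and -0.10.

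Each gene was read from its probe set of highest signal. Of the called genes 50 had further probe sets kept, and in 42 of them all had the same sign. They disagreed in sign for Cnnm4, Cp, Cpt2, Dcps, Dusp10, Ilkap, Ldah and Zfr. Of the 53 called genes followed through the alternatives, 17 were called in at most 11 of their 22 or 23: Adamts5, C1qtnf7, Cd3g, Cygb, Cyp1b1, Dus1l, Emp1, Gss, Islr, Lgi2, Lrpprc, Mamdc2, Mttp, Olfml3, Serinc2, Slc18a2 and Tbx20. Quantile normalization ended the call of 21 of the 53, among them Fmod, Gulp1, Mdk and Vgll3, and median centring that of 17, among them Cp, Dcps and Mdk, with adjusted p of up to 0.103 (Mttp) and 0.123 (Dcps).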

How the data were processed

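The authors deposited 1 table of MAS5 intensity values (signals on a linear scale, 45101 probe sets, 34 arrays), per the file headers and the submitters' processing notes; scaling details are not given in the sources used here. Controls were removed, the 60% of probe sets with the highest mean signal kept, and each gene read from the brightest kept probe set that carries a single symbol (18193 genes with 1 symbol, 13099 tested). Values became log2(signal + 16). The comparison came from limma 3.58.1 (R 4.3.3), lmFit and eBayes with an intensity trend over all 7 groups, two-sided, Benjamini-Hochberg over all genes, called at adjusted p under 0.05; the script was tested on simulated data. Fold changes are on the log2(signal + 16) scale. Up to 23 alternatives were run per gene: offset, filter, normalization, probe summary, model and left-out arrays; leaving out basal replicate 4 with peretinoin replicate 1 was chosen after seeing the data.

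Members and lists were chosen with earlier results of these data known. The text names, by rule, the 12 largest rises and falls among called genes without overlap (clones left out), a panel of 25 genes, up to 4 members of smallest p per list and the 5 smallest p per direction of the age difference; groups of called genes by role, and others added to them, were chosen after their values were seen. The highest correlation between arrays was 0.977, with 0.293% of signals identical, so none was a duplicate.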

Additional observations from a re-analysis of the deposited data

Results flagged for a closer look

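Single arrays stood away from the other 4 of their diet in 14 of 260 sets of 5 values examined, where chance gives about 1 in 20; the number after each is the gap to the nearest array as a share of the whole range. Peretinoin replicate 1 was the lowest for Col4a2 (0.755), a basement membrane collagen chain, and for Smad6 (0.849), an inhibitor of BMP signalling, and the highest for skeletal muscle markers (0.951). Basal replicate 4 was the highest for muscle (0.713) and pancreatic acinar markers (0.986) and the lowest for Cx3cr1 (0.726). Peretinoin replicate 3 was the highest for Cygb (0.767) and the lowest for Pdgfc (0.714) and for Cyp2b10 (0.804), a cytochrome of drug metabolism. Peretinoin replicate 5 was the highest for Mttp (0.805). Basal replicate 1 was the highest for Ifit2 (0.743), an interferon-induced gene, and Trim24 (0.885), a nuclear receptor cofactor; basal replicate 3 was the lowest for Gpm6a (0.722), a mesothelial marker, and basal replicate 5 for Lrpprc (0.788).

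The limma test of the difference between the ages (week 48 minus week 20, log2) called 18 of the genes named here and 0.679% of all genes tested. Of the 18, 5 in each direction were named because they had the smallest p in this same test. The others were named by their week 48 values, which enter the difference. The count therefore follows in part from how the genes were chosen. The difference was negative for Abi3bp (-1.65), Epha3 (-1.61), Thbs2 (-1.42), Dcps (-0.83), Pmvk (-1.70), Serpina7 (-2.60), Hectd2os (-3.45), a long non-coding RNA, Rpa3 (-0.88), a subunit of a single-strand DNA binding complex, and Zfp983 (-1.28), a zinc finger protein. It was positive for Creb3l3 (0.75), Cpt2 (0.72), Slc39a14 (1.16), Sidt2 (0.71), Nrg4 (2.65), Ripk4 (1.12), a receptor-interacting kinase, Trim24 (1.61), Slc25a13 (0.81), the mitochondrial aspartate-glutamate carrier, and Rdh10 (0.59), a retinol dehydrogenase.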

How the results depend on the processing

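The number of genes called at week 48 (95) was 62 without a filter on signal, 53 after quantile normalization, 55 after median centring, 4 in the fit on the 10 arrays alone, 40 without the 6 arrays of another tissue and 52 without basal replicate 4 and peretinoin replicate 1. Genes called higher (20) numbered 12 without a filter, 0 on the 10 arrays alone, 12 without the intensity trend, 8 without the 6 arrays and 12 without the 2. Genes called lower (75) numbered 39 after quantile normalization, 34 after median centring, 4 on the 10 arrays alone, 32 without the 6 arrays and 40 without the 2. Leaving out 1 array at a time gave 26 to 180 calls, 4 to 59 higher and 22 to 121 lower. The difference between ages (89) counted 48 without a filter, 136 in the brighter 40% of probe sets, 48 after median centring, 54 with probe sets averaged, 27 on the compared arrays alone, 407 with array weights and 135 without the 6 arrays, and 11 to 215 with 1 array left out. The cause of these moves was not tested. With the replicate number as a block 128 genes were called, 31 of them higher. Same-numbered arrays of the 2 diets correlated at -0.01 to 0.29 over 5 pairs, and 3 of the 5 basal arrays correlated best with their own number. Numbers 1 and 4, which hold the 2 arrays of another tissue, did not. These values do not settle whether same-numbered arrays share anything. The labels do not state that they do, so the number was a block only in this alternative. Values that changed sign were those of Tie1 (0.020 with offset 64, 0.074 quantile, 0.092 median centring, 0.16 array weights, 0.29 without the 6 arrays or the 2, and -0.14 to 0.30 with 1 array left out), Tgfb1 (0.016 quantile, 0.021 median centring, 0.16 array weights, 0.24 without the 6 or the 2, -0.23 to 0.23 with 1 left out), Col1a1 (0.0072 without the 6 or the 2), Col1a2 (0.17 likewise; -0.30 to 0.046 with 1 left out), Vegfa (-0.25 with probe sets averaged; -0.044 to 0.099 with 1 left out), Ccnd1 (-0.071 with array weights; -0.16 to 0.27), Rara (-0.14 to 0.21 with 1 left out) and Cp (-0.036 with probe sets averaged). Of 53 called genes followed, 52 kept their sign in each alternative run, and Bambi and Ccbe1 kept their call in all. Dim genes such as Cdh11, Epha3 and Fmod sit near the offset, which limits what their signals show. The change of Epha3 was -2.53 with offset 1 and -1.04 with offset 64.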
